A study of Mus musculus with 3 samples.

Results

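Platelet-derived growth factor (PDGF) ligands and receptors were examined in mesangial cells sorted from adult mouse kidney. The set held 7 genes by name, the ligand genes Pdgfa, Pdgfb, Pdgfc and Pdgfd, the receptor genes Pdgfra and Pdgfrb, and the receptor-like gene Pdgfrl. All 7 were measured, each by 1 probe set, among 18685 named genes. Cells came from adult male CD-1 mice that carried the transgene Tg(Meis1-EGFP)FO156Gsat, a bacterial artificial chromosome in which Meis1 regulatory sequence drives enhanced green fluorescent protein. Kidney cortex was digested with collagenase, glomeruli were caught on a mesh and dissociated with trypsin, and fluorescent cells were sorted. The labels give the source as glomerular and extraglomerular mesangium, so a reporter gene and a sieving step, not a mesangial surface protein, defined the cells. There was 1 group of 3 samples, each from 1 kidney and none pooled, and no control population. No treatment was given and all samples carried the transgene. Whether they were kidneys of different mice is not in the labels, so each SD measures the spread between these samples, which may be partly technical.

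Mesangial cells are contractile pericytes that support the capillary loops of the glomerulus. PDGF ligands act as dimers that bring receptor chains together, after which the receptors phosphorylate each other on tyrosine and recruit signalling proteins. PDGF-B made by glomerular endothelium and PDGF receptor beta on mesangial precursors are known to be required for a mesangium to form, and PDGF-B is a known mitogen of mesangial cells in glomerular disease. PDGF-A and PDGF-B are processed inside the cell, whereas PDGF-C and PDGF-D are secreted as latent proteins whose CUB domain must be cut off.

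All values are deposited log2 signals. Because probe sets differ in affinity, a value was set against the signal on its own array of 1269 probe sets of gene families used mainly in other tissues, called silent here, which were those of keratin-associated proteins and of olfactory, vomeronasal and trace amine receptors. The 95th percentile of these was the threshold, at 7.48, 7.46 and 7.40 in samples 1, 2 and 3, and a gene was above it when it passed on all 3 arrays. Not every such gene need be silent, since a few olfactory receptors are known in kidney, and the highest of these probe sets reached 10.03, 10.19 and 10.19. Values of different genes given side by side are not to be ranked. Without a control population, RNA of other glomerular cells cannot be told apart from RNA of mesangial cells, and fewer cells of a type cannot be told apart from less RNA per cell. The arrays were alike in level, with medians from 7.53 to 7.56, and their number limits the precision. Of 12 mesangial markers, chosen with earlier results of these data known, 12 lay above the threshold, against 58.0% of all named genes. Their means ran from 9.41 for the proteoglycan gene Cspg4 to 13.10 for the growth factor gene Ptn. All 12 endothelial markers passed as well, so this count does not single out mesangial cells. With the threshold raised by 1 on the log2 scale, 12 of 12 mesangial and 7 of 12 endothelial markers passed. Of all named genes 32.7% passed that height. Meis1, whose regulatory sequence drove the reporter, had 9.33, 9.42 and 9.42 in samples 1, 2 and 3.

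The starts of transcription of 4 members, all above the threshold, are shown as sequence, since these were the members with a matched window. Pdgfb and Pdgfrb, also above the threshold, are not shown. Windows of 250 bases before the start, 5′ to 3′ on the gene's strand, are from RefSeq on GRCm38.p6. Capitals mark the letters of a GC box (GGGCGG, or CCGCCC on the other strand) or of a TATA box (TATAAA, or TTTATA on the other strand), wherever they lie in the window.
Pdgfa, chr5:138994945-138995194, minus strand: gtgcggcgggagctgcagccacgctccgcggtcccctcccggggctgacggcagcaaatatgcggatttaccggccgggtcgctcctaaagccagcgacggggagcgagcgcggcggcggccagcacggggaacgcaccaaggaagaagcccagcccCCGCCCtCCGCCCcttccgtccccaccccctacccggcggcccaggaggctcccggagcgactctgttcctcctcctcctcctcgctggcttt
Pdgfc, chr3:81036166-81036415, plus strand: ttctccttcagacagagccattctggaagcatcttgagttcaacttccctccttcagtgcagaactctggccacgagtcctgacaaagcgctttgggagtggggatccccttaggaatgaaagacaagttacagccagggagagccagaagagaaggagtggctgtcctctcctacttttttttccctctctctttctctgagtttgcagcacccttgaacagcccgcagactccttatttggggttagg
Pdgfd, chr9:6168236-6168485, plus strand: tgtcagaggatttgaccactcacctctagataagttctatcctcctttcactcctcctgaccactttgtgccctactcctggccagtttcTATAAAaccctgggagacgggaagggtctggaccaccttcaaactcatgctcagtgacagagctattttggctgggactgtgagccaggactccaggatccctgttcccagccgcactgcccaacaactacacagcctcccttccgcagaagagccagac
Pdgfra, chr5:75152001-75152250, plus strand: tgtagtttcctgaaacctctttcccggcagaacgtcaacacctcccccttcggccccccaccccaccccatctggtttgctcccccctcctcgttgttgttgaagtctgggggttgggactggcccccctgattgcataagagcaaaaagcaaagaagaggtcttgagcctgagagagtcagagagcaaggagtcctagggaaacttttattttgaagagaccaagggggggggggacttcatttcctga
The Pdgfa window was the richest in G and C of these 4, at 72.4%, against a median of 52.4% over 32851 such windows of all genes, 93.6% of which had less. It held 2 GC boxes, 93 to 88 and 86 to 81 bases before the start. Another annotated Pdgfa start, further downstream, had 66.4% and 1 GC box. The windows of Pdgfc, Pdgfd and Pdgfra had 50.8%, 53.6% and 54.4% and no GC box, a motif held by 32.7% of all windows. Pdgfd held the letters TATAAA in 1 place, 160 to 155 bases before the start, and 12.4% of all windows held that motif. Whether these letters act as a TATA box at that distance was not tested. The motif GCGGGGGCG (CGCCCCCGC on the other strand), bound by the immediate early factor EGR1, was in none of the member windows and in 2.57% of all windows. EGR1 and the podocyte factor WT1 are known to bind GC-rich sequence before PDGF-A. In these arrays the gene Egr1 had 8.45 in each sample and Wt1 had 10.24, 10.13 and 10.07. These matches describe letters and show no binding.

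Of the 7 members, 6 lay above the threshold in every sample, whereas 58.0% of all named genes did (10842 of 18685). The same 6 lay above the threshold raised by 1 on the log2 scale, a height passed by 32.7% of named genes. These were all 4 ligand genes and both receptors with a kinase domain, and Pdgfrl did not pass in any sample. Among silent genes, 59 of 1253 (4.71%) passed the threshold and 12 (0.958%) passed it raised by 1. The 7 genes were chosen by name with earlier results of these data known, so the share describes them and carries no test.

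**Figure D1:**
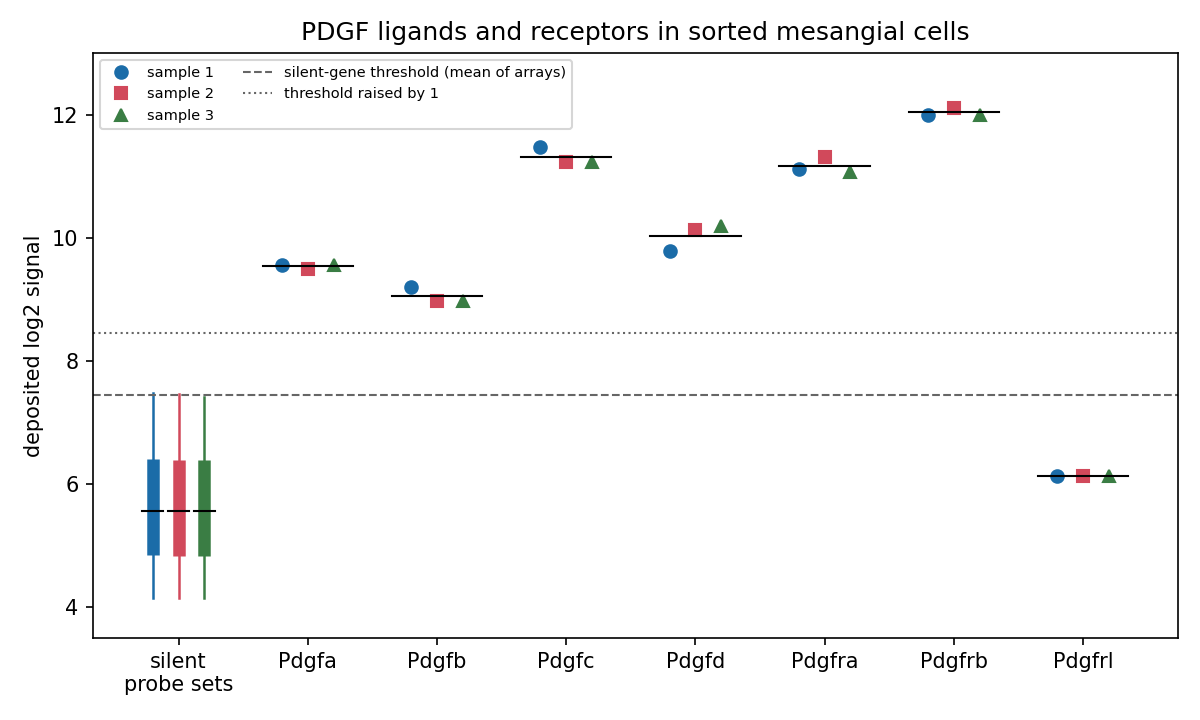
Deposited log2 signal (vertical axis) of the 7 PDGF genes in samples 1, 2 and 3 (blue circles, red squares, green triangles; black lines are means), beside the silent probe sets of each array (thin lines from the 5th to the 95th percentile, thick bars from the 25th to the 75th, black ticks at the median). Pdgfrl sits within the silent range at 6.12, and the other 6 genes sit between 8.97 and 12.11, above the dotted line that marks the threshold raised by 1.

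Pdgfrb encodes PDGF receptor beta, the chain that binds PDGF-B and PDGF-D and marks pericytes and mesangial cells. It had 12.00, 12.11 and 11.99 in samples 1, 2 and 3, a mean of 12.03 ± 0.06 (SD, n = 3). All values lay at least 4.52 above the threshold of their array, and 0 of the 1269 silent probe sets was higher on any array. Sample 2 was the highest, by 0.11 over sample 1 and 0.12 over sample 3. A range this wide or wider is common in these data: 32.5% of the 10842 named genes above the threshold had a larger one.

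Pdgfra encodes PDGF receptor alpha, which binds PDGF-A, PDGF-B and PDGF-C and is best known from fibroblasts and other interstitial cells. It had 11.11, 11.32 and 11.07, with a mean of 11.17 ± 0.13 (SD, n = 3). No silent probe set was higher on any array, and its values lay 3.63 to 3.85 above the threshold. Sample 2 was again the highest, with the other samples 0.21 and 0.25 lower. Of genes above the threshold 15.8% had a larger range.

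Fibroblast markers were checked because of this known source. Of 10 fibroblast genes, 5 lay above the threshold and 3 passed it raised by 1, shares near those of all named genes. The actin-severing gene Gsn, also expressed outside fibroblasts, had 9.40, 9.31 and 9.36, and the collagen genes Col1a1 and Col1a2 had 8.59 and 8.80, each identical on the 3 arrays. Dcn, for the small proteoglycan decorin, had 7.56, 8.21 and 7.76 and was the 1 gene of the list highest in sample 2, where Pdgfra was highest and Gsn lowest, and 5 of the 10 were identical on the 3 arrays. Lum, for another small proteoglycan, and the matrix gene Dpt were within the silent range, at 5.33 and 5.51, as were Pi16, Mfap5 and Dpep1. On the linear scale, the list summed to 2412, 2461 and 2402 in samples 1, 2 and 3. Its part in the Pdgfra signal was not tested. Dcn, Dpt, Pi16, Mfap5, Dpep1, Col1a1 and Col1a2 were chosen after their values were seen.

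Pdgfrl encodes a secreted protein that resembles the outer part of the PDGF receptors and has no kinase domain. It had 6.12 in each of the 3 samples, which gave margins from the threshold of -1.36 to -1.28. Between 402 and 406 of the 1269 silent probe sets were higher, depending on the array. Its signal was thus within the range of the silent reference, and the SD of 0 does not mean that it was measured without error. Identical values were frequent in this series, with 9546 named genes (51.1%) at the same value on all 3 arrays.

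Among the ligands, Pdgfb encodes PDGF-B, which binds both receptor chains. It had 9.20, 8.97 and 8.97, with a mean of 9.05 ± 0.13 (SD, n = 3). Its smallest margin over the threshold was 1.51, and 4, 7 and 7 silent probe sets were higher on arrays 1, 2 and 3. Sample 1 stood 0.23 above the other samples, whose values were identical. A larger range was found for 17.4% of genes above the threshold.

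Endothelial and platelet markers bear on Pdgfb because both cell types are known sources of PDGF-B. All 12 endothelial markers lay above the threshold and 7 passed it raised by 1, against 58.0% and 32.7% of all named genes. Eng, for a TGF-beta co-receptor, had 11.32, 10.98 and 11.21, whereas the receptor kinase gene Tie1 had 7.55 in each sample. The junction genes Pecam1 and Cdh5 and the VEGF receptor gene Kdr, chosen after their values were seen, had means of 7.61, 7.66 and 7.57. Vwf had a mean of 7.62. These genes and Tie1 barely passed, with values 0.07 to 0.29 above the threshold of their array. The other 6 genes that passed the raised threshold beside Eng were Tek at 10.78, Ehd3 at 10.42, Emcn at 10.38, Plvap at 9.35, Flt1 at 8.82 and Esam at 8.54, likewise chosen after their values were seen. On the linear scale the 12 genes summed to 9617, 8529 and 9581 in samples 1, 2 and 3, lowest in sample 2, while Pdgfb was lower in both samples 2 and 3 than in sample 1. Of 7 measured platelet markers, 2 lay above the threshold, and they summed to 1203, 1234 and 1211. Treml1, for a platelet receptor, had 8.53 in each sample, and the platelet chemokine genes Ppbp and Pf4 lay within the silent range with means of 6.74 and 6.86, Pf4 chosen after its values were seen. The part of either cell type in the Pdgfb signal was not tested.

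Pdgfa encodes PDGF-A, which acts through the alpha receptor. It had 9.55, 9.50 and 9.56, a mean of 9.54 ± 0.03 (SD, n = 3), and 4 or 5 silent probe sets were higher depending on the array. It had the narrowest range of the 6 members above the threshold, at 0.06. Even so, 43.2% of genes above the threshold had a larger range, since 39.4% of them had none at all.

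Pdgfc encodes the latent ligand PDGF-C, which after cleavage binds the alpha receptor. It had 11.47, 11.23 and 11.23, with a mean of 11.31 ± 0.14 (SD, n = 3) and no silent probe set higher on any array. Sample 1 was 0.24 above each of the other samples. A larger range was found for 15.9% of genes above the threshold. Pdgfb and Pdgfc were thus both highest in sample 1. The members were highest in samples 1, 2 and 3 in 2 cases each. Of the 10842 named genes above the threshold, 1878, 1207 and 1829 were highest in samples 1, 2 and 3.

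Pdgfd encodes the latent ligand PDGF-D, which after cleavage binds the beta receptor. It had 9.79, 10.12 and 10.19, with a mean of 10.03 ± 0.22 (SD, n = 3). On array 1, 2 silent probe sets were higher, on array 2 there was 1 and on array 3 there were 0. Sample 1 was the lowest, with sample 2 higher by 0.33 and sample 3 by 0.41, whereas Pdgfc was highest in sample 1. It had the widest range of the members over the 3 samples, and 6.73% of genes above the threshold had a larger one. Without sample 1, which lay farthest from the others, the range was 0.07. Pericyte and smooth muscle markers, for cells that can also express Pdgfd, summed on the linear scale to 12862, 12467 and 14180 in samples 1, 2 and 3. Of that list 9 of 10 genes lay above the threshold and the 9 also passed it raised by 1. For all named genes the shares were 58.0% and 32.7%. The G protein regulator gene Rgs5 was at 11.68 and the calponin gene Cnn1, not above the threshold on all 3 arrays, at 7.46. Cnn1 had 7.31, 7.54 and 7.54, and passed on arrays 2 and 3 and not on array 1. The part of these cells in the Pdgfd signal was not tested.

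No PDGF gene differed between samples by more than 0.41. The median range of the 6 members above the threshold was 0.24, against 0.03 over all genes above it, and each of the 6 lay under the 95th percentile of 0.47. Among 3 values 1 always lies farthest from the others, and leaving it out must narrow the range, so the following values are description only. Without sample 1 the range was 0.0000 for Pdgfb and 0.0045 for Pdgfc, and without sample 2 it was 0.0075 for Pdgfa, 0.041 for Pdgfra and 0.0058 for Pdgfrb. With 3 samples of 1 group no test of these differences was made.

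**Figure D2:**
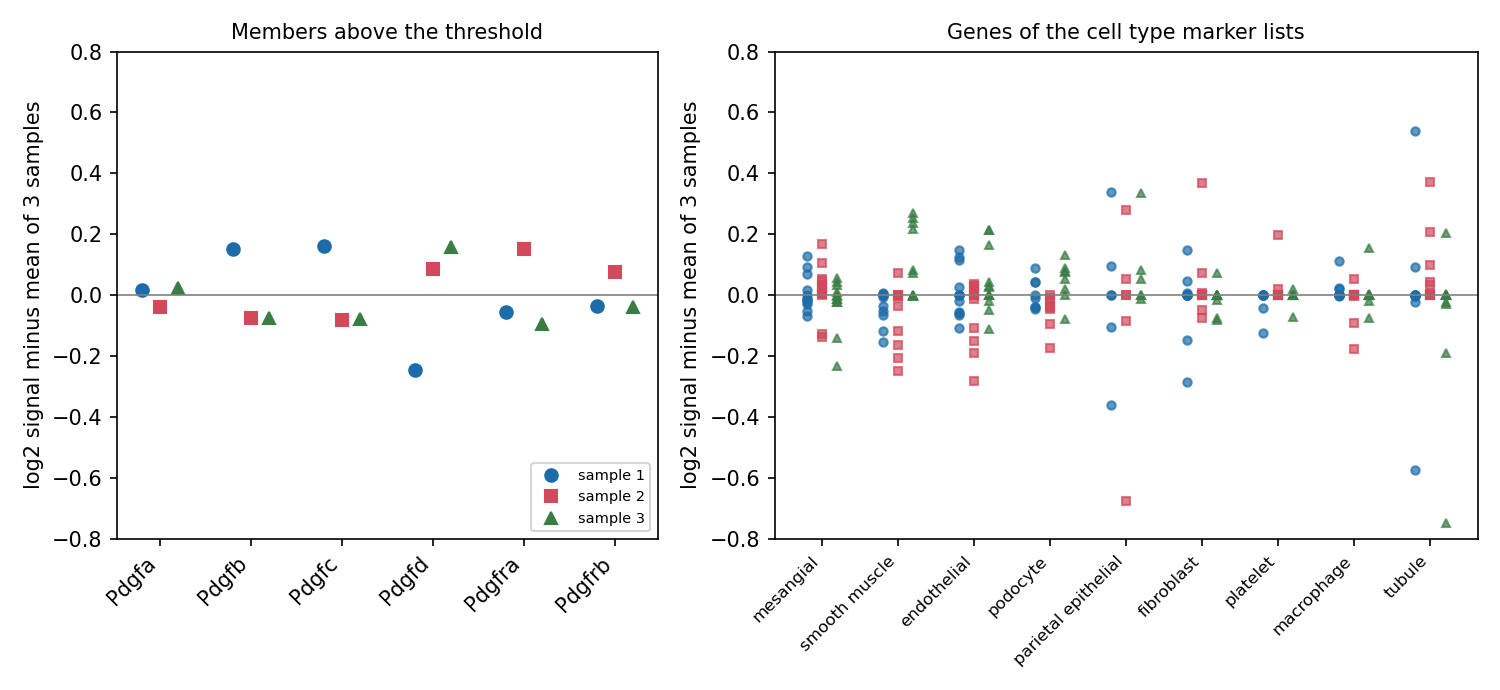
Difference of each sample from the mean of the 3 samples, on the log2 scale, for the 6 PDGF genes above the threshold (left) and for each gene of the marker lists (right; smooth muscle stands for the pericyte and smooth muscle list), with samples 1, 2 and 3 as blue circles, red squares and green triangles. Sample 1 lies 0.15 and 0.16 above the mean for Pdgfb and Pdgfc and 0.25 below it for Pdgfd (a difference of -0.25), and single marker genes differ from their mean by up to 0.28 in the endothelial list, 0.37 in the fibroblast list and 0.75 in the tubule list.

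Of 10 genes that process PDGF ligands or serve as co-receptors, 8 lay above the threshold and 6 passed it raised by 1. The shares of all named genes were 58.0% and 32.7%. Plat and Plau encode tissue-type and urokinase-type plasminogen activators, which cut the CUB domain from PDGF-C and PDGF-D respectively. Plat had 8.88, 8.78 and 8.76, and Plau had 9.80, 9.40 and 9.95. Plau was lowest in sample 2, and 3.40% of genes above the threshold had a larger range than its 0.55. St14, for matriptase, a membrane protease that also cuts PDGF-D, was not above the threshold at 7.23.

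The proprotein convertases, which trim PDGF-A and PDGF-B in the secretory pathway, divided. Furin had 8.87, 8.73 and 8.75 and passed the threshold raised by 1. Pcsk6 at 7.66 and Pcsk7 at 8.17 were less than 1 above the threshold, and Pcsk5 at 7.38 was not above it, each identical on the 3 arrays. Sparc, for a matrix protein that binds PDGF-B, had 13.19 in each sample. The co-receptor genes Lrp1 and Nrp1 had means of 10.95 ± 0.10 and 12.55 ± 0.04 (SD, n = 3).

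Relay genes between the receptors and the nucleus were above the threshold without exception among those measured, 27 of 27. With the threshold raised by 1, 21 of 27 passed. The shares of all named genes were 58.0% and 32.7%. The list was drawn from adaptors, Src-family kinases, the phosphatidylinositol 3-kinase and Ras pathways and STAT factors, and 7 of its 34 genes are not analysed here. Pik3r1, the regulatory subunit of phosphatidylinositol 3-kinase that docks on both receptors, had 12.46 in each sample. Rasa1, a Ras GTPase activator that docks on the beta receptor, had 10.97, 11.10 and 11.11, and Nras had 10.21, 10.29 and 10.29. The adaptor gene Nck2 at 7.60 and Src at 7.91 had the lowest means of the list and were less than 1 above the threshold. Such genes are expressed in most cell types.

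Inhibitors of the pathway were likewise above the threshold, 13 of 13 measured genes, of which 11 passed it raised by 1. The shares of all named genes were again 58.0% and 32.7%. Spred2 and Spred1, which restrain Ras signalling, had 11.75, 11.43 and 11.43, and 10.61 in each sample. Cblb, a ubiquitin ligase that marks active receptors for breakdown, had 11.22, 11.33 and 11.23. Spry1, another antagonist of receptor tyrosine kinases, had 7.76 in each sample, and Ptprj, a phosphatase that acts on the beta receptor, had 7.95, 8.09 and 8.03. Both were less than 1 above the threshold.

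Genes that PDGF is known to induce in cultured cells were above the threshold in 9 of 12 cases, against 58.0% of all named genes. Against 32.7% of all named genes, 1 of the 12 passed it raised by 1. That gene was Ccnd1, for cyclin D1, at 10.23, 10.58 and 10.62, lowest in sample 1. Egr1 and the serum response factor gene Srf had means of 8.45 and 8.40. Has2, for hyaluronan synthase, had 5.93 in each sample and lay within the silent range. The chemokine genes Ccl2 (7.37, 7.47 and 7.41) and Ccl7 (7.47, 7.50 and 7.50) passed on arrays 2 and 3 and not on array 1, and these were the calls of the list that differed between arrays. Immediate early genes also respond to tissue dissociation, and its part in these values was not tested.

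**Figure D3:**
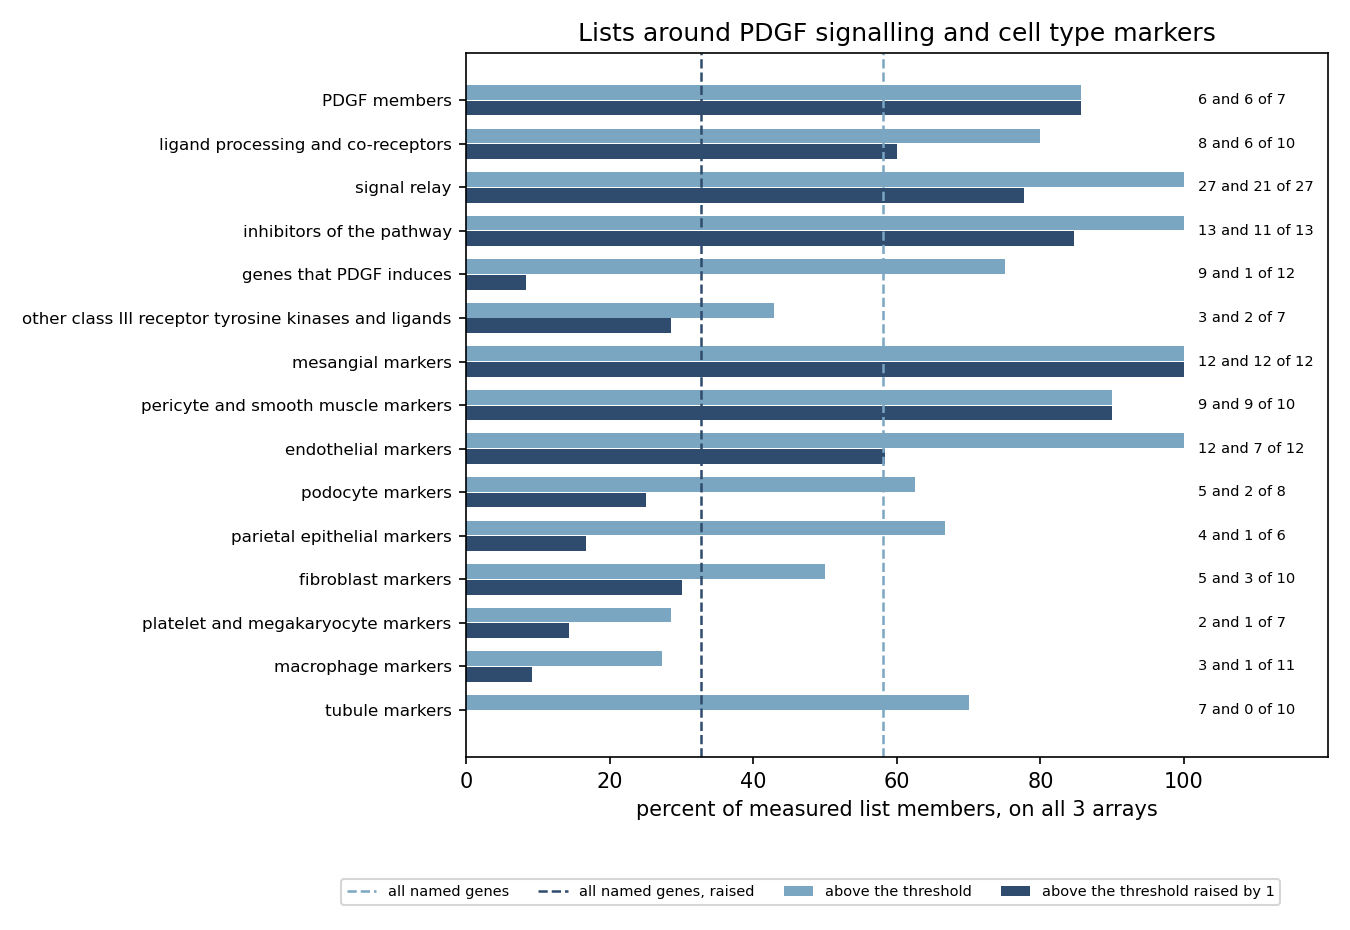
Percent of the measured members of each list (horizontal axis) above the threshold (light bars) and above it raised by 1 (dark bars) on all 3 arrays, with both counts at the right and the shares of all named genes, 58.0% and 32.7%, as dashed lines. Relay, inhibitor, mesangial and endothelial lists stand at 100% above the threshold, while the genes that PDGF induces fall from 75% to 8.33% when it is raised.

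The other class III receptor tyrosine kinases, the structural relatives of the PDGF receptors, were compared as the nearest family. Kit, the receptor for stem cell factor, had 6.75, Csf1r, the receptor for macrophage colony-stimulating factor, 6.60, and Flt3 6.85, each identical on the 3 arrays and none above the threshold. Of their ligands, Csf1 had 8.94 in each sample, Flt3l had 9.28, 9.09 and 9.09, and Il34, a second ligand of the Csf1 receptor, had 8.41, 8.39 and 8.41. All 3 of these lay above the threshold, and Csf1 and Flt3l passed it raised by 1 in every sample. Kitl, for stem cell factor, had 6.76, 7.12 and 7.12 and was not above it. Of these 7 genes 3 (42.9%) lay above the threshold and 2 (28.6%) passed it raised by 1, which with so few genes is near the shares of all named genes.

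Both PDGF receptor genes have another class III receptor gene as a neighbour in the mouse genome. In the RefSeq gene order of GRCm38.p6, Kit is the next protein-coding gene after Pdgfra, and Csf1r is the next after Pdgfrb. Thus Pdgfra at 11.17 had Kit at 6.75 beside it, and Pdgfrb at 12.03 had Csf1r at 6.60. In both pairs the PDGF receptor was above the threshold on all 3 arrays and its neighbour of the same class was not.

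**Figure D4:**
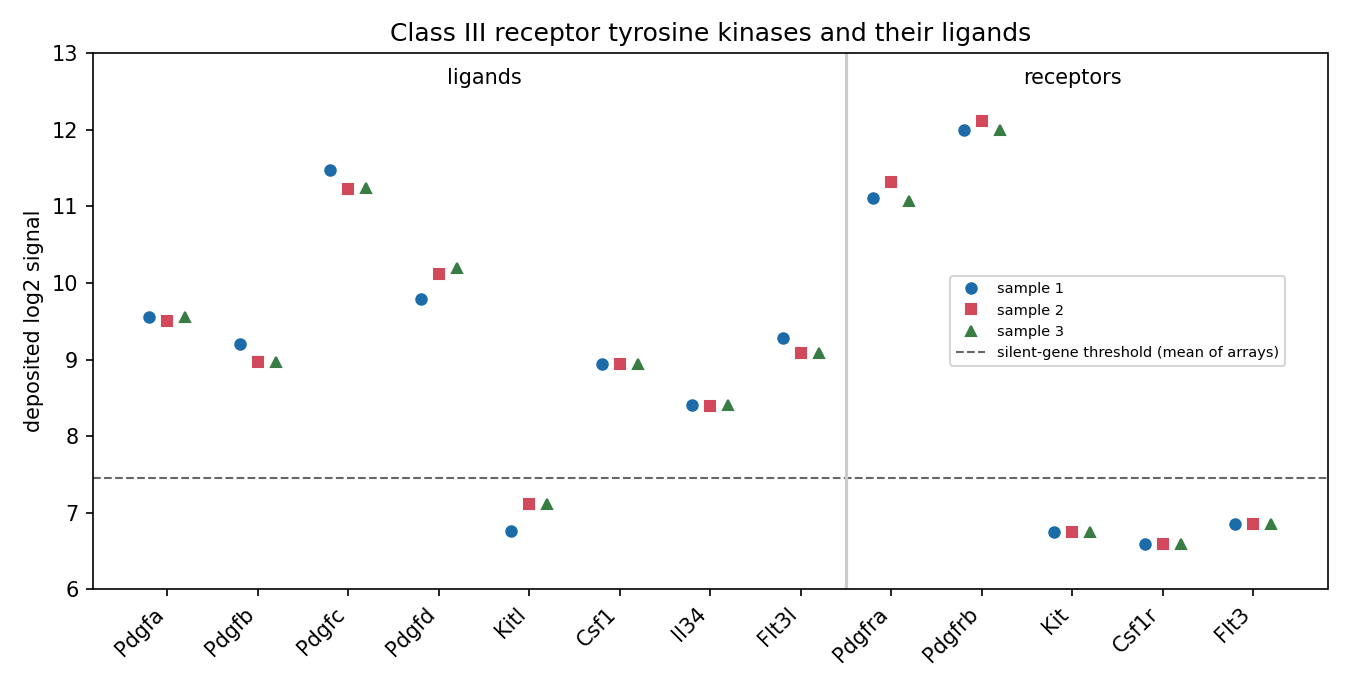
Deposited log2 signal (vertical axis) of class III receptor tyrosine kinases (right of the grey line) and their ligands (left) in samples 1, 2 and 3 (blue circles, red squares, green triangles), with the mean silent-gene threshold as a dashed line. Pdgfra and Pdgfrb lie above the line, Kit, Csf1r and Flt3 lie at 6.85 or below, and Kitl is the ligand under it.

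Markers of the remaining cells of the glomerulus and its surroundings were as follows. Of all named genes 58.0% lay above the threshold and 32.7% passed it raised by 1. With so few genes in each list, the podocyte, parietal and tubule shares above the threshold, 62.5%, 66.7% and 70.0%, are near that of all named genes. The macrophage share was 27.3%. Of 8 measured podocyte markers, 5 lay above the threshold and 2 passed it raised by 1, with the transcription factor gene Wt1 given above and the phosphatase gene Ptpro at 6.75. Of 6 parietal epithelial markers 4 lay above it and 1 passed it raised by 1, Cd24a at 11.65, 12.29 and 12.09, while the claudin gene Cldn1 had 7.69, 6.67 and 7.68. Of 11 macrophage markers 3 lay above it and 1 passed it raised by 1, the mannose receptor gene Mrc1 at 11.93, 11.72 and 11.79, while Adgre1, for the macrophage surface protein F4/80, was at 5.56. Of 10 tubule markers 7 lay above the threshold and 0 passed it raised by 1 on all 3 arrays. The uromodulin gene Umod had 9.51, 9.18 and 8.22, and the endocytic receptor gene Cubn lay within the silent range at 6.21. The summed linear signal of the 3 samples ran from 2670 to 2810 for the podocyte list, from 4180 to 5858 for the parietal list, from 4691 to 5211 for the macrophage list and from 2076 to 2469 for the tubule list. Single genes carried much of these sums. Without Cd24a the parietal list ran from 864 to 977, and without Mrc1 the macrophage list ran from 1314 to 1321. Without Wt1 the podocyte list ran from 1546 to 1678, and without Umod the tubule list ran from 1682 to 1891. The part of these cells in the PDGF values was not tested.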

How the data were processed

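RNA of sorted mesangial cells was amplified with the WT-Ovation Pico system and hybridised to Affymetrix arrays, 1 for each sample, per the labels' protocols. Log2 signals per probe set were deposited; the submitters' processing notes name Affymetrix Expression Console. For its version, background correction and way of summarising probes, the entry is: not given in the sources used here. That the base is 2 was read from the highest value, 14.39. Sorted, the arrays had nearly the same values, and further scaling and centring are unknown. Of 35557 probe sets, 14310 (40.2%) had 1 value on all 3 arrays, so an SD can be too small.

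The platform annotation gave 21789 probe sets exactly 1 symbol, 1621 several and 12147 none. Symbols were updated by Entrez number with RefSeq (GRCm38.p6) for 21698. The probe set with the highest mean stood for a gene, and those with several symbols were not used for any gene. Python 3.11.15 and pandas 2.3.3 were used, and the threshold calls were tested on simulated data. There silent and unraised genes shared 1 distribution and raised genes lay far above its centre, so this checked the code and not these data. With 1 group, no comparison between conditions and no statistical test was made. Depth has no counterpart on arrays.

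The members and the 15 lists (175 genes, 161 measured) were chosen with earlier results of these data known. Named by rule were the members, Meis1, the processing and class III genes, the 3 highest and 2 lowest means of the other pathway lists with any call that differed between arrays, and the highest and lowest mean of each marker list. The rule named no gene for likeness to a member, since 3 arrays of 1 group give no pattern over conditions. Genes added after their values were seen stand outside this rule, among them Dcn, described as highest in sample 2 like Pdgfra. Protein sequences were planned and are not analysed here. Promoter windows were matched by symbol for 4 of the 7 members. Windows on 1 chromosome were left out of this match, so a member without a window need not lack an annotated one. Alternatives were another percentile, the threshold raised by 1, olfactory receptors alone, the mean of arrays, other probe set choices, median centring and leaving out each sample.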

Additional observations from a re-analysis of the deposited data

How the results depend on the processing

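The count of 6 of 7 PDGF genes above the threshold was the same under all 10 alternatives. Most of these could not change it. The 6 genes passed on all 3 arrays and Pdgfrl on 0, so leaving out a sample or averaging the arrays fixed the count beforehand. Median centring moves values and threshold together. Only the other percentile, the raised threshold and olfactory receptors alone could have changed the count. The mean margin of Pdgfb, the smallest of the 6, ran from 0.60 with the threshold raised by 1 to 1.97 with the 90th percentile of silent probe sets, and that of Pdgfrl from -2.33 to -0.95. Each member has 1 probe set, so the probe set choices left their values as they were. The range over samples of each of the 6 fell by over 1.5 times without 1 sample, to between 0.0000 (Pdgfb) and 0.072 (Pdgfd). With 3 values, leaving out the one farthest from the others must narrow the range this much, so the fall is by construction. Raising the threshold by 1 moved the named genes above it from 10842 to 6119, the genes that PDGF induces from 9 to 1, endothelial markers from 12 to 7, podocyte markers from 5 to 2, parietal epithelial markers from 4 to 1, fibroblast markers from 5 to 3, platelet markers from 2 to 1, macrophage markers from 3 to 1 and tubule markers from 7 to 0. By construction a higher threshold passes fewer genes. With the 90th percentile, platelet markers rose to 4 and macrophage markers to 6. Of 160 recomputed counts, 149 stayed within 1.5 times the main count, all those without replicate 1, 2 or 3 among them. Without replicate 1, 11 of the 12 induced genes passed in place of 9. The silent-gene threshold limits what can be called: a gene under it may be expressed at a level that the array cannot separate from background. No paired analysis was possible because there was 1 group.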
